A study of Mus musculus with 7 samples.

Results

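Spp1, Sostdc1, Angptl2, Cd200 and Gpm6b are 5 of the 19589 gene symbols in a table of expression values from mouse CD4+ spleen cells. They were chosen by symbol, as products linked to follicular helper T cells, with their values in the mutant and wild-type libraries already known. Their differences between genotypes are therefore given as a description, with no test. The study compared CD4+ cells of 4 wild-type mice (WT1 to WT4) with those of 3 mice of the genotype Tet2-/-G17VRHOA (RT1 to RT3). RT mice lack Tet2, an enzyme that oxidises methylated cytosine in DNA, and carry the G17V form of RHOA, which disables this small GTPase. All mice were C57BL/6, the cells were taken from spleen by fluorescence-activated sorting, and 1 RNA-seq library was made for each mouse from 150 ng of RNA. Neither the age of the mice nor the promoter or Cre behind the RHOA change is given in the sources used here, and no other allele is named.

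TET2 loss and RHOA G17V occur together in human angioimmunoblastic T cell lymphoma, whose cells resemble the follicular helper T cells of germinal centres, which support B cells as these refine their antibodies. The 5 products reach other cells in different ways. Spp1 encodes osteopontin, a secreted phosphoprotein that binds integrins and CD44 and was first known from bone matrix. Sostdc1 encodes a secreted antagonist of bone morphogenetic proteins (BMPs) and of Wnt signalling. Angptl2 encodes a secreted angiopoietin-like glycoprotein. Cd200 encodes a membrane glycoprotein that restrains myeloid cells through the receptor CD200R and serves as a marker of follicular helper T cells. Gpm6b encodes a membrane proteolipid best known from the nervous system.

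Depth split the libraries into 2 sets. The deep libraries, WT1, WT2 and RT1, had 18566233 to 21800352 reads behind their values. The shallow libraries, WT3, WT4, RT2 and RT3, had 105763 to 121659. Values are in RPKM (reads of a gene scaled to its length and to the library's reads), from which whole reads per gene could be recovered. Summed over all genes, RPKM came to between 133044 and 152578 in deep libraries but to between 326187 and 366023 in shallow ones. Levels are therefore also given in TPM, each RPKM rescaled so that every library has the same total. For a gene of 2 kb, 1 read equalled 0.0269 RPKM in the library WT1 and 4.73 RPKM in the library RT2. Tet2 itself was at 6.32, 4.68, 2.86 and 2.79 RPKM in WT1 to WT4 and at 5.03, 0.803 and 0 RPKM in the libraries labelled RT1 to RT3. RT1 thus lay between the deep wild-type libraries, and since the deleted exons are not given, a value over the whole gene does not check its label. Among the markers of other cell types, RT1 also stood apart. Its summed macrophage and monocyte markers reached 8628 TPM, against 1455 to 2700 TPM in the wild-type libraries and 931 and 1383 TPM in RT2 and RT3. Cd4 itself stood at 711 to 956 TPM in WT and 842 to 1419 TPM in RT, and the 2 markers of CD8 T cells summed to at most 52.1 TPM. P-values below measure the spread between these 7 mice's libraries, but those on recovered reads rest mostly on the deep ones. Without RT1, the only deep RT library, that fit called 0 genes higher and 0 lower, against 549 and 470 with it. Its p-values therefore hold little of the spread between RT mice.

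The 250 bases before the RefSeq start of a gene (build GRCm38.p6) were found for Spp1, Angptl2, Cd200 and Gpm6b. They are shown for 3 genes because each holds a feature that the other windows lack or hold less often. Capitals mark the RUNX core motif in Spp1 (read here as ACCACA, the reverse complement of TGTGGT), the E-box CAGCTG in Angptl2 and every CpG dinucleotide in Gpm6b.
Spp1, chr5:104434861-104435110, plus strand: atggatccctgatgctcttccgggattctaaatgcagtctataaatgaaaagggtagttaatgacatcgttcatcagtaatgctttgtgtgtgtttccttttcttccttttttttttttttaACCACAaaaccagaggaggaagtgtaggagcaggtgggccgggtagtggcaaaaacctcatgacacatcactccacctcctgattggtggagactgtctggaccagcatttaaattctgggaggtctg
Angptl2, chr2:33215711-33215960, plus strand: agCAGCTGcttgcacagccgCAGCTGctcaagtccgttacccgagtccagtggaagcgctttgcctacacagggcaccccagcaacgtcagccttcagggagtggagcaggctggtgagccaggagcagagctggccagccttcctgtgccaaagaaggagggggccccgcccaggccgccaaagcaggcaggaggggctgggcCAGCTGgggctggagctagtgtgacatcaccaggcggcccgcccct
Gpm6b, chrX:166238693-166238942, plus strand: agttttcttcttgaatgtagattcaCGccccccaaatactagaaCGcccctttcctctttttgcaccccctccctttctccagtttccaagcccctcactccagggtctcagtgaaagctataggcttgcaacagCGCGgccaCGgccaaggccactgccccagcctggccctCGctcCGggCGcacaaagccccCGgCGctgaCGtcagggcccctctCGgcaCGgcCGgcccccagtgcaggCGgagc
The Spp1 window is the nearer of 2 to the gene's start in the annotation. Over 32817 mouse promoter windows of the same length, searched on both strands, 14.04% held TGTGGT and 13.01% held CAGCTG. The Angptl2 window held 3 such E-boxes and the Spp1 window 1 RUNX core. An AP-1 motif (TGANTCA, in 6.753% of all windows) and a TCF/LEF motif (CTTTGA, in 13.83%) were in none of the 4 windows. NFAT's core GGAAA, in 55.56% of all windows, occurred 1 time in Spp1, 2 times in Gpm6b and not in Angptl2 or Cd200. CpG counts ran from 3 in Spp1 through 6 in Cd200 and 9 in Angptl2 to 15 in Gpm6b, where the median of all windows was 6. These matches describe letters and not occupied sites.

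Of the 5 genes, Spp1 showed the widest difference between genotypes. It lies on chromosome 5 at 104435118 to 104441050 on the plus strand (mm10, GENCODE M21), in a cluster of genes for acidic bone and tooth matrix proteins. Its level was 1.63 RPKM in WT1, 0.818 in WT2, 5.10 in WT3 and 9.98 in WT4, against 42.5 in RT1, 138 in RT2 and 110 in RT3. Every RT library stood above every wild-type one. In bulk RNA, fewer cells of a type and less RNA per cell cannot be told apart. The reads behind these values were 50, 27, 1 and 2 in WT1 to WT4 and 1527, 24 and 22 in RT1 to RT3, so the shallow wild-type values rest on 3 reads. In TPM, the wild-type libraries held 15.3 ± 9.70 (SD, n = 4) and the RT libraries 335 ± 41.3 (SD, n = 3), a 22-fold difference of means. The 3 RT libraries were close to each other in TPM, at 294, 376 and 336, although RT1 had 21800352 reads behind its values and RT2 had 105763. The RT2 to RT3 ratio was 1.25, with an exact 95% interval of 0.674 to 2.35.

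Within each library set, Spp1 differed by a factor far outside its counting error. RT1 over the summed WT1 and WT2 reads gave a ratio of 35.1 (exact 95% interval 27.9 to 44.7). The shallow ratio, RT2 and RT3 over WT3 and WT4, was 16.2 (5.21 to 81.5). These intervals cover counting error and not the spread between mice. The wild-type libraries also differed among themselves: WT1 held 2.0 times the level of WT2 (1.23 to 3.32). On the log2(RPKM + 1) scale the difference between genotypes was 4.37 ± 0.69 (SE), the 6th highest of 9605 genes in that fit. In recovered reads, with a term for library set, it was 5.07 ± 0.34, the 9th highest of 5866 genes, and 3.63 ± 0.99 without RT1. By rank of RPKM among all genes, Spp1 stood between 4055 and 9459 in the wild-type libraries and at 508, 431 and 515 in RT1 to RT3.

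The receptors of osteopontin are integrins that read its RGD or neighbouring sequence, and CD44. Of 10 such genes, 8 were above 0 in some library and 5 had enough reads for the test, 10 or more summed over the shallow libraries. Itgb5, Itgav and Cd44 rose and no gene fell in the fit over all libraries. The background for this test was 9.36% of all genes higher and 8.01% lower. The calls on partner genes given here and below depended on RT1: without that library none was called by limma voom, and 3 of 27 had an unadjusted p under 0.05. Itgb5, a partner of the alpha-v chain, had values of 4.58, 3.70, 5.0 and 2.45 RPKM in WT1 to WT4, against 21.2, 0 and 17.1 RPKM in RT1 to RT3 (log2 fold change 2.28 ± 0.28, limma voom adjusted p = 0.00182). RT2, at 0, lay below every wild-type library, and RT1 and RT3 lay above. Itgav, the alpha-v chain itself, was at 6.34, 3.49, 1.57 and 2.30 RPKM against 19.8, 5.28 and 11.5 RPKM (2.05 ± 0.30, adjusted p = 0.00335). Its 2 higher RT libraries exceeded all wild-type ones, while RT2 lay within their range. Cd44, the hyaluronan receptor of activated T cells, gave 0.95 ± 0.27 (adjusted p = 0.0421), with 1.14 in the deep libraries alone and -0.28 in the shallow ones alone. Its call was lost in 8 of 16 alternative fits (adjusted p 0.0126 to 0.946), among them those without WT1, WT3 or RT3. Itga4, the alpha-4 integrin chain and the fifth gene tested, gave -0.49 ± 0.27 (adjusted p = 0.257) but was called lower in 3 of 16 alternatives: with the replicate block (-0.85, adjusted p = 0.00597), without WT2 (-0.83, adjusted p = 0.000684) and in the shallow libraries alone (-0.85, adjusted p = 0.0177). Itgb1, the most abundant gene of the list, was at 44.9 to 159 RPKM in WT and 71.8 to 211 RPKM in RT and did not pass (0.38 ± 0.18, adjusted p = 0.200). Of 16 alternatives, 1 called Itgb1 higher, the fit without WT1 (0.54 ± 0.13, limma voom adjusted p = 0.0254).

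Itgb3, the classical partner of the alpha-v chain in osteopontin binding, went the other way in RPKM. It was singled out after its values were seen and had too few reads in the shallow libraries for the read-based test. It measured 7.70, 13.7, 4.27 and 2.79 RPKM in WT1 to WT4, against 1.55, 1.60 and 1.39 RPKM in RT1 to RT3. The groups did not overlap in RPKM, a state that 4.57% of all genes shared in this direction, but in TPM RT1, at 10.7, lay above WT4, at 7.96. With a minimum of 10 reads over all libraries, the read-based fit called it lower (-2.67 ± 0.36, limma voom adjusted p = 0.00644). On the log2(RPKM + 1) scale the limma adjusted p was 0.454 and the unadjusted p 0.0212, against a background at that level of 4.53% of all genes higher and 4.16% lower. Itga9, also outside the main read-based test, was called higher with 10 reads over all libraries (1.78 ± 0.35, limma voom adjusted p = 0.0205). It was at 11.4 RPKM in RT1 and 0 in RT2 and RT3, against 2.19 to 3.24 RPKM in WT.

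Among the enzymes that phosphorylate, cut or cross-link osteopontin, Fam20a and Tgm2 rose of 3 tested in recovered reads and none fell. In that fit 9.36% of all genes rose and 8.01% fell. Fam20a, a pseudokinase that activates the secretory kinase Fam20C, was at 0.771, 0.316, 0 and 2.26 RPKM in WT1 to WT4, against 22.9, 26.0 and 20.4 RPKM in RT1 to RT3. Every RT library lay above every wild-type one, by a log2 fold change of 5.43 ± 0.39 in recovered reads (limma voom adjusted p = 0.000451). Fam20a was the only one of 43 partner genes to pass on log2(RPKM + 1), where 0.0416% of all genes were called higher and 0.0104% lower. That call, at a limma adjusted p of 0.0476, was lost in 10 of 14 alternatives (adjusted p 0.0297 to 0.362), including without any library other than WT4. Fam20c, the kinase, was at or below 0.561 RPKM in WT, at 1.41 RPKM in RT1 and listed at 0 in RT2 and RT3. Tgm2, a transglutaminase that cross-links osteopontin and is abundant in macrophages, was at 36.6 RPKM in RT1, 4.10 in RT2 and 14.3 in RT3, against 4.43 to 21.9 RPKM in WT. Its fold change was 2.55 ± 0.40 (adjusted p = 0.00462) over all libraries and -1.34 in the shallow ones alone. RT1, the library with the highest macrophage marker sum, had the highest Tgm2 level, and their relation was not tested. The bone matrix genes Ibsp, Dmp1 and Mepe, next to Spp1 on chromosome 5, and Dspp were listed at 0 in all 7 libraries.

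Macrophages also make osteopontin, and their markers are set beside Spp1. Of 13 macrophage and monocyte genes in the table, all were above 0 in WT1, WT2 and RT1, 10 in WT3, WT4 and RT2, and 8 in RT3. In recovered reads 8 of 9 tested rose and none fell, where 9.36% of all genes rose and 8.01% fell. Without RT1 this fit called 0 genes higher and 0 lower. On log2(RPKM + 1) 12 of the list were tested with limma and 0 were called, where 0.0416% of all genes were called higher and 0.0104% lower. There 1 of the 12 had an unadjusted limma p under 0.05. Zeros in the shallow libraries went both ways. Cd68 and Cd163 were listed at 0 in RT2 and RT3 alone, Cd14 in WT3 and WT4 alone, and Fcgr1 in every shallow library. Marco was listed at 0 in WT3, WT4 and RT3. Adgre1, which encodes F4/80, stood at 245 TPM in RT1, at 7.96 TPM in RT2 and at 0 in RT3, against 39.0 to 79.6 TPM in WT. Spp1 per 1000 TPM of the macrophage list came to 3.68 to 12.7 TPM in WT, 34.0 in RT1, 404 in RT2 and 243 in RT3. In TPM, Spp1 stood at 294, 376 and 336 in RT1 to RT3. The macrophage sums there were 8628, 931 and 1383 TPM, against 1455 to 2700 TPM in WT. The relation of Spp1 to these sums was not tested. The summed markers of B cells and plasma cells were highest in WT3 and WT4, and those of stromal and follicular dendritic cells reached at most 9.61 TPM.

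**Figure D1:**
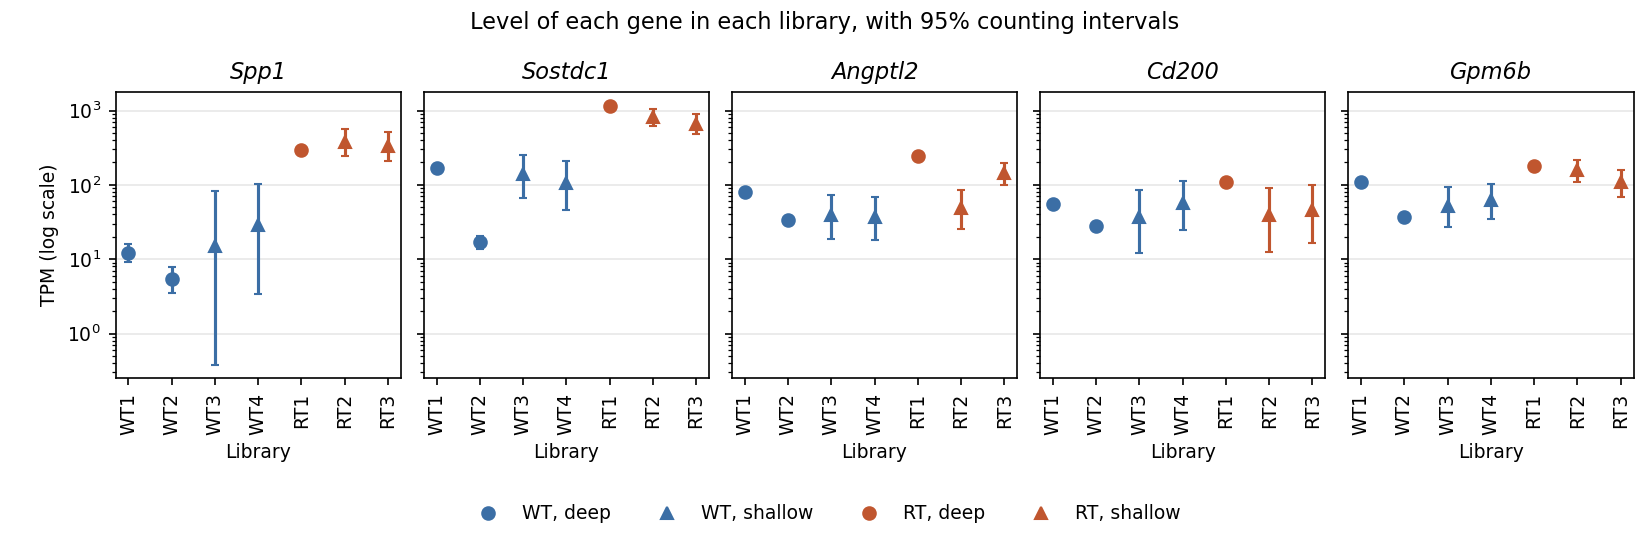
Level of the 5 genes in each library in TPM (log axis, 1 panel a gene). Points are libraries with exact 95% counting intervals, coloured by genotype and shaped by library set. Spp1 and Sostdc1 are the 2 genes whose RT libraries all lie above all wild-type ones in TPM.

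Sostdc1 was the most abundant of the 5 genes in every RT library. It lies on chromosome 12 at 36314139 to 36318452, plus strand, with a single annotated transcript. It had values of 22.7, 2.58, 47.2 and 36.9 RPKM in WT1 to WT4, against 169, 297 and 217 RPKM in RT1 to RT3, with no overlap between groups. The reads were 752, 92, 10 and 8 in WT and 6545, 56 and 47 in RT. In TPM the means were 108 ± 66.3 (SD, n = 4) and 880 ± 256 (SD, n = 3), and RT1 at 1164 TPM was higher than RT2 at 812 and RT3 at 665. By RPKM it ranked 96th of all genes in RT1, 212th in RT2 and 251st in RT3.

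The wild-type libraries were far from uniform for Sostdc1. WT1 held 8.82 times the level of WT2 (exact 95% interval 7.10 to 11.1), the largest wild-type spread among the 5 genes in the deep libraries. The size of the deep difference therefore depended on the wild-type library chosen. RT1 was 7.41 times WT1 (6.87 to 8.0) and 65.4 times WT2 (53.2 to 81.2), and the pooled ratio was 13.7 (12.8 to 14.8). In the shallow libraries the ratio was 6.05 (3.65 to 10.6). The fitted difference was 3.49 ± 0.83 on log2(RPKM + 1), the 20th highest, and 4.30 ± 0.82 in recovered reads, the 12th highest. The latter was 2.77 without WT2, 5.59 without WT1 and 2.49 ± 2.18 without RT1.

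**Figure D2:**
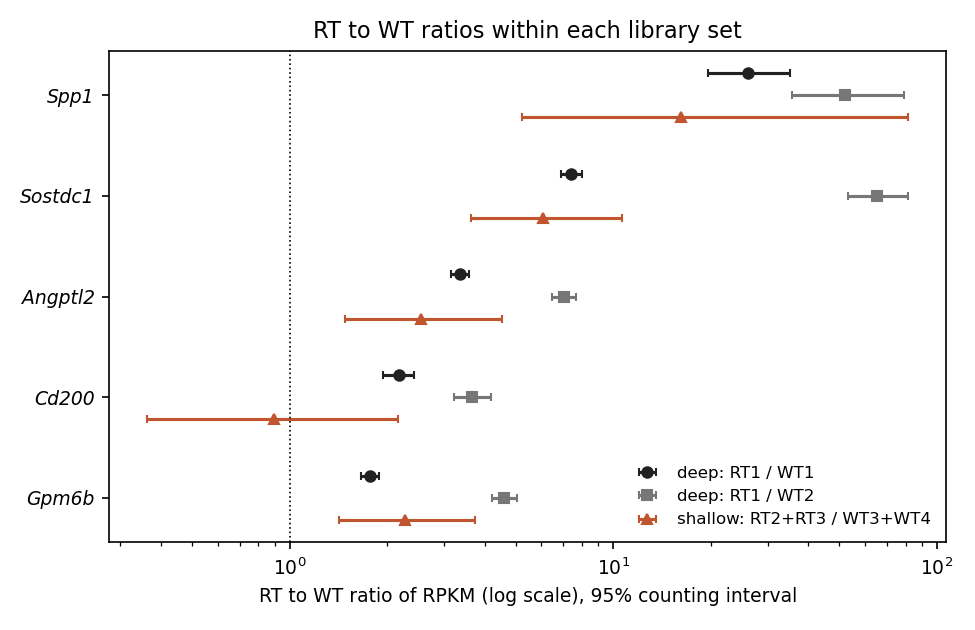
Ratio of RT to WT in RPKM for each gene (log axis), given for RT1 over each deep wild-type library and for RT2 and RT3 over WT3 and WT4. Bars are exact 95% counting intervals and the dotted line is a ratio of 1. All 5 genes lie above 1 in the deep libraries, and Cd200 is the gene whose shallow interval, 0.363 to 2.17, includes 1.

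Few of the BMP and Wnt genes that Sostdc1 acts on were well measured. None of 10 BMP ligands and receptors had enough reads for the read-based test. Of these, 5 were tested on log2(RPKM + 1), none with a limma adjusted p under 0.05 and 1 with an unadjusted p under 0.05. Bmp7, the highest, was at 0 to 4.60 RPKM in WT and 2.35 to 5.14 RPKM in RT. Acvr1, a type I BMP receptor singled out after its values were seen, was at 0.424 and 0.382 RPKM in WT1 and WT2, at 0 in WT3 and WT4, and at 3.74, 3.92 and 1.70 RPKM in RT. Its adjusted p from limma was 0.307 and its unadjusted p 0.0052. With a minimum of 10 reads over all libraries, the read-based fit called it higher (3.09 ± 0.31, limma voom adjusted p = 0.00361). Of 9 transducers and targets of BMP signalling, 3 were tested. Smad7, an inhibitory Smad, fell from 24.0, 30.7, 9.30 and 18.2 RPKM in WT1 to WT4 to 10.1, 10.5 and 9.09 RPKM in RT1 to RT3 (log2 fold change -1.41 ± 0.18, limma voom adjusted p = 0.00197). WT3 lay between the RT values, so the groups overlapped. Id2, a target that restrains E proteins, was at 17.4 to 55.2 RPKM in WT and at 29.1, 109 and 175 RPKM in RT (0.63 ± 0.24, adjusted p = 0.118). Id2 was called higher in the shallow libraries alone (1.38 ± 0.37, limma voom adjusted p = 0.00767) and without WT1 (0.93 ± 0.21, adjusted p = 0.0165). Smad4, the remaining gene tested, gave -0.60 ± 0.19 (limma voom adjusted p = 0.0698) and was called lower in 3 of 15 alternatives.

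Of 16 transducers and targets of Wnt signalling, 9 were tested, and 5 fell and none rose in the fit over all libraries. Of all genes, 8.01% fell and 9.36% rose in that fit. The genes of this list that fell were Myc, Lef1, Axin1, Tcf7 and Ccnd1. The calls of Myc and Lef1 held in 13 of 15 and 13 of 16 alternatives, that of Ccnd1 in 9 of 16, and those of Axin1 and Tcf7 in 5 and 4 of 16. Without WT4, or with WT3 and WT4 summed, Lef1 and Myc alone were called of this list, and without the library set term Myc alone. With a minimum of 10 reads over all libraries, Tcf7l2, another factor of the pathway, was called higher (2.90 ± 0.50, limma voom adjusted p = 0.0142). Znrf3, also of this list, was called lower in that setting (-1.49 ± 0.32, adjusted p = 0.0288). Rnf43, tested and not called over all libraries, was called higher in 1 of 15 alternatives, without WT1 (1.14 ± 0.22, limma voom adjusted p = 0.00975). Lef1, a transcription factor of the pathway that is also high in naive T cells, was at 14.3, 29.3, 16.3 and 16.8 RPKM in WT1 to WT4 and 5.31, 7.53 and 16.8 RPKM in RT1 to RT3 (-1.86 ± 0.34, limma voom adjusted p = 0.00889). RT1 and RT2 lay below all wild-type libraries and RT3 within their range. Myc stood at 12.3, 19.5, 27.8 and 18.2 RPKM against 5.18, 13.9 and 15.1 RPKM (-1.55 ± 0.24, adjusted p = 0.00463). Tcf7, the partner of Lef1 and the most abundant gene of the list, changed least of the 5 (-0.34 ± 0.10, adjusted p = 0.0480). Axin1, a scaffold of the beta-catenin destruction complex, was lower in the deep libraries but gave 0.24 in the shallow ones alone. Ccnd1, a cyclin outside the naming rule, was at 3.79, 3.65, 41.1 and 40.2 RPKM in WT and at 1.5, 0 and 0 RPKM in RT (-1.63 ± 0.45, adjusted p = 0.0391). WT3 and WT4, its high libraries, also had the highest B cell and plasma cell marker sums (1319 and 1539 TPM, 1489 and 1827 TPM), whose part in this value was not tested. Of 12 Wnt receptors and co-receptors, 2 were tested and 0 were called or had an unadjusted limma voom p under 0.05, among them Lrp6 (0.09 ± 0.23, adjusted p = 0.834). Other settings called some members higher: Fzd1 without the library set term (adjusted p = 0.0263), and Fzd4, Lrp4 and Lrp5 with a minimum of 10 reads over all libraries (adjusted p = 0.0382, 0.0116 and 0.0339).

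Many other secreted antagonists were listed at 0. Of 20 secreted BMP and Wnt antagonists, 19 were in the table and 10 of these were listed at 0 in all 7 libraries. Twsg1, a BMP-binding protein, was the only one with enough reads for a test. It measured 11.2, 7.39, 6.23 and 16.3 RPKM in WT1 to WT4, against 27.6, 32.7 and 32.5 RPKM in RT1 to RT3. It rose by 1.58 ± 0.24 (log2, limma voom adjusted p = 0.00414), and the deep and the shallow libraries alone gave 1.59 and 1.54. Its RT libraries lay above all wild-type ones. With a minimum of 10 reads over all libraries, Dkk3 was also called higher (2.82 ± 0.62, limma voom adjusted p = 0.0311).

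Angptl2 was 3.19 times higher in RT by mean RPKM. The gene lies on chromosome 2 at 33216069 to 33247717 on the plus strand, inside Ralgps1 on the opposite strand, with which it shares no exon base. Ralgps1 was at or below 2.76 RPKM everywhere. Angptl2 had values of 10.7, 5.09, 13.4 and 13.1 RPKM in WT1 to WT4, against 35.9, 18.0 and 47.1 RPKM in RT1 to RT3. The groups did not overlap in RPKM, but in TPM RT2, at 49.3, was below WT1, at 80.3. Means in TPM were 47.6 ± 22 (SD, n = 4) and 147 ± 99.2 (SD, n = 3). RT2 held 0.383 times the level of RT3 (exact 95% interval 0.182 to 0.754), from 12 and 36 reads, so the mutant libraries differed beyond counting error. The pooled ratio was 4.61 (4.37 to 4.86) for deep libraries and 2.54 (1.48 to 4.52) for shallow ones. The fitted difference was 1.56 ± 0.49 on log2(RPKM + 1), the 338th highest of 9605 genes. In recovered reads it was 2.18 ± 0.38, the 106th highest of 5866 genes, and 1.11 ± 1.22 without RT1.

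Among other angiopoietin-like genes, Angptl1, Angptl4, Angptl6 and Angptl7 reached at most 2.96 RPKM in any library. Pirb, a mouse receptor for angiopoietin-like proteins that myeloid and B cells carry, was at 14.3 RPKM in RT1 and 0 in RT2 and RT3, against 3.49 to 15 RPKM in WT (1.49 ± 0.45, limma voom adjusted p = 0.0544). Of 10 angiopoietin-like genes and receptors, 8 were in the table, 2 were tested in reads and none was called, with 1, Pirb, at an unadjusted p under 0.05. Pirb was called higher in 7 of 15 alternatives (adjusted p 0.0109 to 0.525), among them the replicate block (1.17, adjusted p = 0.031) and the fits without WT1, WT2, WT3 or RT2.

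Cd200, the established surface marker among the 5, had the smallest ratio of group means in RPKM, 1.36. In the deep libraries alone its ratio was above that of Gpm6b. It lies on chromosome 16 at 45382135 to 45409053 on the minus strand. Its level was 7.27, 4.30, 12.7 and 19.8 RPKM in WT1 to WT4 and 15.8, 14.2 and 14.9 RPKM in RT1 to RT3. WT4 lay above all RT libraries, so the groups overlapped. In TPM the means were 44.1 ± 13.8 (SD, n = 4) and 64.5 ± 38.7 (SD, n = 3), and only RT1, at 109 TPM, exceeded every wild-type library. The library sets gave opposite directions. RT1 over WT1 and WT2 was 2.75 (exact 95% interval 2.51 to 3.03), and RT2 and RT3 over WT3 and WT4 was 0.895 (0.363 to 2.17). The shallow ratio rests on 11 reads in RT and 13 in WT, and its interval includes a ratio of 1. On log2(RPKM + 1) the fitted difference was 0.59 ± 0.51, the 1985th highest of 9605 genes. Over all libraries the recovered-read difference was 1.39 ± 0.31, the 264th highest of 5866 genes, and without RT1 it was -0.15 ± 1.14.

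CD200 acts on cells that carry CD200R, which signals through the adaptors Dok1 and Dok2 and the GTPase-activating protein Rasa1. Cd200r1, the main receptor, was at 5.61, 4.76, 8.27 and 4.04 RPKM in WT and at 6.07, 0 and 16.2 RPKM in RT, from 0 to 4 reads in the shallow libraries. Of 7 receptor and adaptor genes, 3 were tested and 1 fell, Dok2 (-0.96 ± 0.20, limma voom adjusted p = 0.0145), although the shallow libraries alone gave 0.12. In the fit over all libraries 8.01% of all genes fell and 9.36% rose. Dok1 and Rasa1 did not pass, with adjusted p of 0.0975 and 0.538. Btla, 124464 bp from Cd200, is an inhibitory receptor of follicular helper and B cells and is in the marker list of the former used below. It was at 20.2, 14.9, 64.5 and 68.2 RPKM in WT1 to WT4, against 42.7, 95.8 and 88.3 RPKM in RT1 to RT3. Within each set its RT libraries were the higher ones, and it rose by 1.12 ± 0.22 (adjusted p = 0.012).

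Gpm6b lies on chromosome X at 166238911 to 166388988 on the plus strand. It measured 14.6, 5.62, 18.0 and 22 RPKM in WT1 to WT4, against 25.9, 57.4 and 35.2 RPKM in RT1 to RT3. The groups did not overlap in RPKM, but RT1 and WT4 were close. In TPM the means were 65.7 ± 31.5 (SD, n = 4) and 148 ± 36.4 (SD, n = 3), and RT3, at 108 TPM, lay just below WT1, at 110 TPM. RT1 was 1.77 times WT1 (exact 95% interval 1.66 to 1.88) and 4.61 times WT2 (4.23 to 5.03), while WT1 was itself 2.60 times WT2 (2.37 to 2.86). The spread between these wild-type libraries was therefore wider than the step from WT1 to RT1. The shallow ratio, 2.27 (1.42 to 3.73), was close to the pooled deep ratio of 2.60 (2.46 to 2.75). On log2(RPKM + 1) the fitted difference was 1.40 ± 0.52, the 465th highest of 9605 genes. In recovered reads it was 1.45 ± 0.42, the 243rd highest of 5866 genes, with 0.79 without WT2, 2.01 without WT1 and 1.08 ± 1.27 without RT1. Its paralogue Gpm6a was listed at 0 in all 7 libraries.

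Set side by side, 4 of the 5 genes had every RT library above every wild-type one in RPKM, a state found for 4.47% of all 9605 genes, and 2 of 5 had it in TPM, where the share of all genes was 4.6%. RT1 exceeded both deep wild-type libraries for 5 of 5 genes (39.6% of all genes), and RT2 and RT3 exceeded WT3 and WT4 for 4 of 5 (19.4%). Because the genes were chosen on this contrast, nothing is read from these counts. The order of levels changed between genotypes. In TPM, Spp1 was the lowest of the 5 in each wild-type library and the second highest in each RT library. Sostdc1 led in all RT libraries and in WT1, WT3 and WT4, but lay below Gpm6b, Angptl2 and Cd200 in WT2. Angptl2 and Gpm6b had close means in RT, at 147 ± 99.2 and 148 ± 36.4 TPM, but their order differed between libraries. Angptl2 was the higher in RT1 (248 against 179 TPM) and RT3 (144 against 108 TPM), and Gpm6b in RT2 (157 against 49.3 TPM). In RT1 and RT2 their exact 95% counting intervals did not overlap. Cd200 was the lowest gene in each RT library.

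The markers of follicular helper T cells were also higher in RT. Of 12 marker genes, 11 were tested in recovered reads, and 9 rose and none fell. In this fit 9.36% of all genes rose and 8.01% fell, and without RT1 it called 0 of all genes higher. On log2(RPKM + 1) 11 markers were tested with limma and 0 were called, where 0.0416% of all genes were called higher and 0.0104% lower. There 8 of the 11 had an unadjusted limma p under 0.05, against 4.53% of all genes higher and 4.16% lower. The marker sum was 1671, 824, 1188 and 981 TPM in WT1 to WT4 and 4070, 2854 and 4732 TPM in RT1 to RT3. WT1 had a higher sum than WT2 and a higher level of each of the 5 genes. Each gene was then expressed per 1000 TPM of this list, a measure chosen after seeing the data. Spp1 came to 6.5 to 29.1 TPM in WT and 71.1 to 132 TPM in RT. Sostdc1 came to 20.5 to 116 TPM in WT and 141 to 286 TPM in RT. For both, every RT library stayed above every wild-type one. Sostdc1 came closest between RT3, at 141 TPM, and WT3, at 116 TPM. Its WT3 level, 138 TPM, rests on 10 reads, and the 95% counting interval of 66.3 to 254 TPM is wide beside this gap.

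The other genes behaved differently on this measure. Angptl2, at 33.0 to 48.1 TPM in WT, was at 60.8 TPM in RT1 but at 17.3 and 30.5 TPM in RT2 and RT3. Gpm6b was at 44.4 to 65.9 TPM in WT and at 44.0, 54.9 and 22.8 TPM in RT1 to RT3. The groups overlapped for both. Cd200 was lower in all RT libraries, with 26.8, 13.6 and 9.62 TPM in RT1 to RT3 against 31.2 to 57.7 TPM in WT. These are ratios of levels over a marker list, and the share of follicular helper cells in each sort was not measured.

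**Figure D3:**
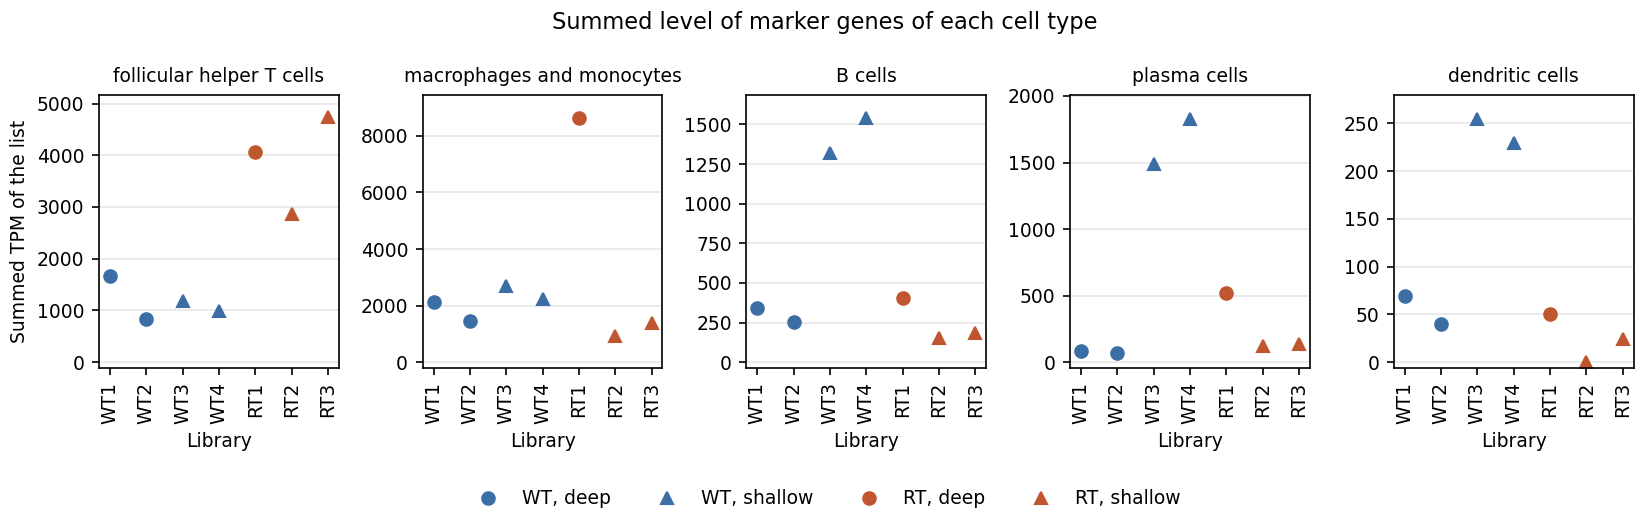
Summed level in TPM of the marker genes of each cell type, 1 panel a list and 1 point a library, coloured by genotype and shaped by library set. The follicular helper sum is higher in the 3 RT libraries (2854 to 4732 TPM) than in the wild-type ones (824 to 1671 TPM), and the macrophage sum is high in RT1 alone.

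Across all partners of the 5 genes, 104 of 107 listed genes were in the table and 77 were above 0 in some library. In recovered reads 27 were tested, of which 6 rose and 7 fell, with a median log2 fold change of 0.10 where the median over all genes was -0.03. Of all genes, 9.36% rose and 8.01% fell. In the shallow libraries alone Id2 was called higher and Ccnd1 and Itga4 lower. Among the 27 tested, Fam20a and Twsg1 stood above every wild-type library in all 3 mutant libraries. Outside that test, Acvr1 and Bmpr1a did so too in RPKM, from 1 or 2 reads in each shallow mutant library. Bmpr1a had a narrow gap, with 1.49 RPKM as its lowest mutant value and 1.36 RPKM as its highest wild-type one. In TPM its groups overlapped. This state in RPKM was found for 4.47% of 9605 genes. Of the partner genes named by the rule given below, Cd44, Tgm2, Axin1, Dok2 and Lrp6 changed sign in the shallow libraries alone.

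**Figure D4:**
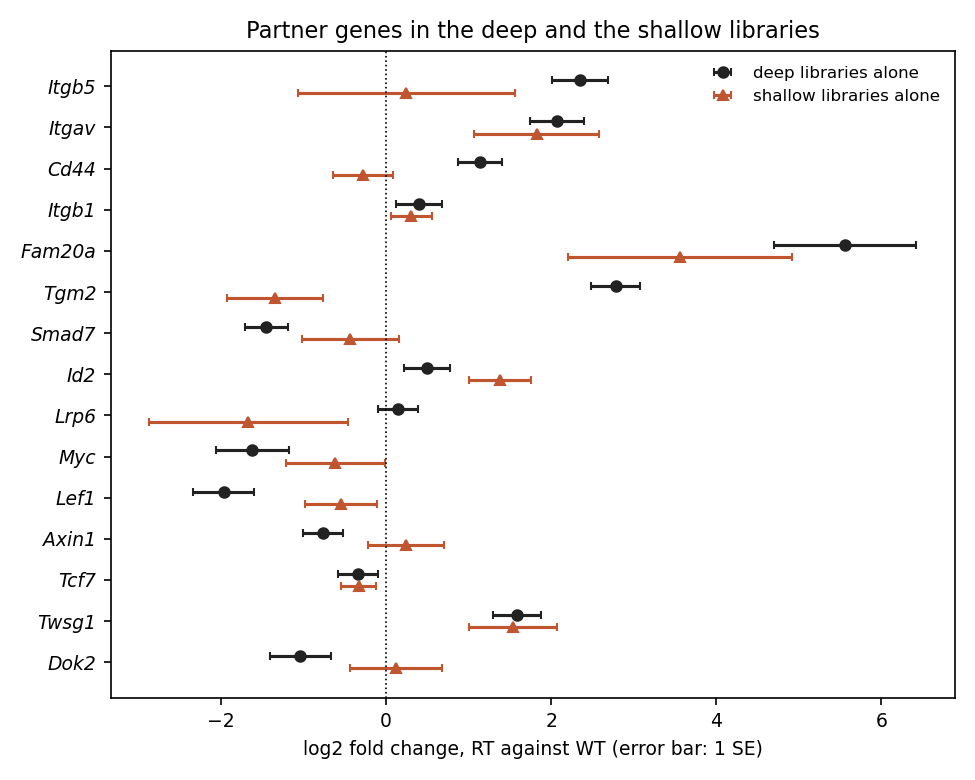
Log2 fold change of partner genes, RT against WT, fitted in the deep libraries alone and in the shallow libraries alone, with error bars of 1 SE and a dotted line at 0. Fam20a is far to the right in both sets (5.56 and 3.56), whereas Tgm2 is at 2.78 in deep and at -1.34 in shallow libraries.

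Few genes next to the 5 on their chromosomes had enough reads to be compared. Of 30 protein-coding neighbours, 3 on each side of each gene, 22 were above 0. On log2(RPKM + 1) 17 were tested with limma and none was called, with 1 at an unadjusted p under 0.05. In recovered reads 5 were tested, Btla rose and none fell, where 9.36% of all genes rose and 8.01% fell. Pkd2, the gene nearest to Spp1 at 18399 bp, reached at most 0.857 RPKM. Ofd1, 1044 bp from Gpm6b, was at 0 to 9.44 RPKM in WT and 0 to 4.25 RPKM in RT. Neighbours of Sostdc1 included Lrrc72 and Meox2, listed at 0 throughout, and Bzw2, at 11.7 to 15.5 RPKM in WT and 8.64 to 19.7 RPKM in RT.

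The genes whose pattern over the 7 libraries was most like each member were found by Pearson's r of log2(RPKM + 1), after the mean of each library set was taken away, over 5779 genes. The libraries share genotype, depth and marker content, so r is a description. For Spp1 they were Odc1 (r = 0.992), the first enzyme of polyamine synthesis, Fam20a (0.992) and Vwde (0.990). Odc1 stood at 17.2 to 70.0 RPKM in WT and 58.2, 239 and 208 RPKM in RT1 to RT3. Its RT libraries were the higher ones within each set. Vwde was at 0 to 1.13 RPKM in WT and 16.3, 29.8 and 36.1 RPKM in RT. For Sostdc1 they were Kdm2b (0.996), a histone demethylase, the endosome tether Eea1 (0.986) and Tbc1d4 (0.985). For Angptl2 they were Tnfsf8 (0.984), which encodes CD30 ligand, Clstn1 (0.981) and Baz1a (0.98). Gpm6b was matched most closely by Apobec3 (0.997), a cytidine deaminase that restricts retroviruses, then by Cpne7 (0.986) and Casp4 (0.982). Cd200 had the weakest matches, with Marcksl1 (0.947), Laptm4a (0.940) and Rrbp1 (0.939). Fam20a, near Spp1 by this measure, was also the partner gene with the largest fold change of the 27 tested in recovered reads.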

How the data were processed

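RNA was taken from sorted CD4+ spleen cells of 4 WT and 3 RT mice, and libraries came from a TruSeq v2 kit, per the labels' protocols. The authors deposited RPKM values, 1 column a library. Per the submitters' processing notes, reads were placed on mm10. Names of the aligner, counter and annotation were not given in the sources used here, nor was the treatment of reads that genes share. Columns were matched to samples by the names in the labels.

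Whole reads were recovered from the values: of 13859 genes above 0, 13003 gave whole reads with 1 length, 851 needed a length for each library set and 5 gave none (tolerance 0.003 reads). For the 5 member genes the length was that of GENCODE M21. Recovered reads made up between 47.6% and 51.5% of a deep library's total and between 88.1% and 91.1% of a shallow library's.

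The planned test was limma 3.58.1 (R 4.3.3, trended prior variance) on log2(RPKM + 1), a scale that understates the change of low genes, for genes that reached 1 RPKM in 3 or more libraries. The test on recovered reads was limma voom with genotype and library set as terms, for genes with 10 or more reads over the shallow libraries. P-values are two-sided and adjusted by the Benjamini-Hochberg method over all genes tested, with a threshold of 0.05. Both fits were also run on simulated counts, with the same dispersion for every gene. Each gene had the same expected share of reads in all libraries of a set and genotype. Those counts hold no difference such as that between WT1 and WT2 in Sostdc1, and nothing is read from them. Intervals of levels and ratios are exact Poisson and binomial ones at 95% and cover counting error only. TPM was computed from RPKM in Python 3.11.15. WT3 and WT4 differed slightly more than sampling allows (chi-square per degree of freedom 1.16 over 2347 genes, p = 6.13e-08) and were kept as 2 samples.

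The members and the gene lists were chosen with earlier results of these data known. In each partner list the genes named are those past the threshold in either fit and the gene of highest mean RPKM, at most 4 a list. Itgb3, Itga4, Itga9, Fam20c, Acvr1, Bmpr1a, Smad4, Ccnd1, Pirb, Cd200r1, Dok1, Rasa1, Tcf7l2, Znrf3, Rnf43, Dkk3, Fzd1, Fzd4, Lrp4, Lrp5 and the genes named as listed at or near 0 fall outside this rule and were chosen after their values were seen. Neighbours are the 3 nearest protein-coding genes on each side. Like genes are the 3 with the highest r, without members, predicted genes and receptor segments. Positions came from GENCODE M21 and promoter windows from RefSeq (GRCm38.p6); 4 of the 5 members matched there. Alternatives tried were the pseudocount, filters, scaling, the library set term, each set alone, a replicate block and leaving out each library.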

Additional observations from a re-analysis of the deposited data

Results flagged for a closer look

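Angptl2 stood at 80.3 TPM in WT1, far from the other wild-type libraries at 33.4 to 39.2 TPM by Dixon's test at the 95% level, which flags about 1 in 20 groups by chance. It was the 1 such case among the 10 sets of wild-type values tested, RPKM and TPM of the 5 genes.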

How the results depend on the processing

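On log2(RPKM + 1), 4 genes were called higher and 1 lower. A pseudocount of 0.1, no filter on low values and the replicate block each gave 0 and 0, a pseudocount of 5 gave 0 lower, a library set term 21 and 5, quantile normalization 20 and 7, and TPM (added after seeing the data) 7 and 5. Leaving out 1 library gave 0 to 10 higher and 0 to 5 lower, the highest without RT1. In recovered reads, 549 genes were higher and 470 lower. No set term gave 312 and 210, the deep libraries alone 361 and 181 (its 1 RT library takes the spread of wild-type libraries, so these counts hold no spread between RT mice), the shallow ones alone 203 and 279, and quantile normalization 739 lower. Leaving out 1 library gave 0 to 750 higher (highest without WT1) and 0 to 667 lower (highest without WT2), with 0 without RT1, and 332 and 301 without RT3. Of partner genes, 6 were higher and 7 lower. A minimum of 30 reads gave 3 and 4, a minimum of 10 over all libraries 13 higher, the shallow libraries alone 1 and 2, the deep alone 3 lower, no set term 2 lower, and WT3 and WT4 summed 4 lower. Leaving out 1 library gave 0 to 9 higher and 0 to 9 lower, with 4 lower without WT4.

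On recovered reads the log2 fold change of 6 genes changed sign in the shallow libraries alone and without RT1: Cd200 (-0.15 alone, -0.15 to 1.75 leaving out 1 library), Cd44 (-0.28, -0.27 to 1.06), Tgm2 (-1.34, -1.37 to 2.73), Axin1 (0.24, -0.75 to 0.25), Dok2 (0.12, -1.06 to 0.11) and Lrp6 (-1.67, -1.76 to 0.18, and -0.02 without WT2). The cause was not tested. Signs were followed for the members, the partner genes named by the rule and Ccnd1, and not for every partner gene tested. The members' log2 fold change on log2(RPKM + 1) kept its sign under all 70 alternatives fitted. It also stayed within the residual SD of the main fit, a wide limit because that SD included the gap between library sets. For Cd200 it ran from 0.26 without WT2 to 0.92 without WT4. On recovered reads it moved in 13 further cases: Spp1 to 3.63 without RT1 and 4.33 with quantile normalization, Sostdc1 to 2.49 without RT1, 2.77 without WT2 or with the replicate block and 5.59 without WT1, Angptl2 to 1.11 without RT1, and Gpm6b to 0.79 without WT2, 0.75 with the block and 2.01 without WT1. The shallow libraries alone gave 3.63, 2.49 and 1.10 for Spp1, Sostdc1 and Angptl2. The RT to WT ratios of the deep libraries, leaving out 1 wild-type library, ran from 26.0 to 52.0 for Spp1, 7.41 to 65.4 for Sostdc1, 3.36 to 7.04 for Angptl2, 2.17 to 3.67 for Cd200 and 1.77 to 4.61 for Gpm6b. Leaving out 1 shallow library gave 1.36 to 3.56 for Angptl2, the lowest without RT3. Deviations of same-numbered libraries from their group means gave r of 0.432, -0.179 and 0.184 for numbers 1 to 3. Library set was not removed, and RT2 is shallow where WT2 is deep, so these values cannot show whether the numbers pair the mice. In recovered reads the replicate block with the set term gave 613 and 540 genes and 7 and 6 partner genes. In the shallow libraries 1 read is worth several RPKM, so a level of 0 there does not show absence.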
